A study of Caenorhabditis elegans with 2 samples.

Results

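The regions described here lie between genes of Caenorhabditis elegans, away from protein-coding promoters, and were recovered in a chromatin immunoprecipitation of the T-box transcription factor TBX-8 from embryos. A region of the list called on both replicates together, the pooled list, was taken when its summit lay in no annotated gene, outside 1000 bp upstream to 200 bp downstream of every protein-coding transcript start, and more than 200 bp from any tRNA, snRNA, snoRNA, rRNA or piRNA gene or pseudogene. Of the 16355 pooled regions, 3017 (18.4%) met this rule. Of these, 53 (1.76%, beside 3.19% of all pooled regions) were also on the authors' thresholded list of 521 regions. That list was derived after testing how reproducible the ranks were between replicates. It was the same as the 521 pooled regions of highest signal, so a region on it need not rank high in each replicate. The 53 intergenic regions on it are called intergenic peaks below, and the 521 are called peaks. All 53 intergenic peaks also lay outside every gene of the RefSeq annotation, whereas 3 of the 3017 summits lay in a RefSeq gene.

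Chromatin immunoprecipitation followed by sequencing (ChIP-seq) recovers DNA fragments bound, directly or through other proteins, by a chosen factor. Embryos of strain RW10470, of mixed sex and mixed stage with a stated age of 2.5 hours, were collected whole by egg bleaching. This line carries st10470, a construct of tbx-8 with TY1, EGFP and 3xFLAG tags and unc-119(+) as its marker, in the unc-119(ed3) background, and the tagged protein was precipitated with an antibody to GFP. The study had 2 biological replicates of this 1 group, sheared to 200 to 800 bp, and no second condition. All values therefore come from 1 transgenic line, mixed over every cell of the embryo, and untagged embryos were not analysed here. Sequencing depth is unknown, as the region lists carry no totals of reads.

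T-box factors bind DNA through a conserved domain that recognises a short G-rich core, and the vertebrate founder of the family, Brachyury, binds a palindrome made of copies of that core placed head to head. In the worm embryo, TBX-8 acts redundantly with the related TBX-9 in morphogenesis of the body wall muscle and epidermis. Regulatory DNA of worms sits mostly close to gene starts, and enhancers farther out are known for individual developmental genes. Intergenic DNA also holds tandem repeats, in which 1 unit is copied end to end.

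The sequences under the highest intergenic peaks are shown first because several of them are tandem repeats. Each window runs 100 bp to either side of the summit on the forward strand of WBcel235 (ce11), from RefSeq. In the window next to gst-11 the capitals mark CAGTTGTCAC, the 10-letter word most frequent in it, which occurred 12 times. In the window next to Y49G5A.1 they mark CAGAGTCACT, which occurred 7 times. In the window next to D2096.7 they mark CTAGTGG or its complement, letters of the A box of tRNA promoters. The windows next to ztf-27 and F54F12.1 have no capitals.
gst-11 (chrX:3631694-3631894, plus strand): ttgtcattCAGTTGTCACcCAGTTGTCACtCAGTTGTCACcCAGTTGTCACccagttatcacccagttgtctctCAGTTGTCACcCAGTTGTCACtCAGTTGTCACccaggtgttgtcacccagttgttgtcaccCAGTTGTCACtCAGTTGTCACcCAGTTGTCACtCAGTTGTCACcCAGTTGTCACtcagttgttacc
D2096.7 (chrIV:8375505-8375705, plus strand): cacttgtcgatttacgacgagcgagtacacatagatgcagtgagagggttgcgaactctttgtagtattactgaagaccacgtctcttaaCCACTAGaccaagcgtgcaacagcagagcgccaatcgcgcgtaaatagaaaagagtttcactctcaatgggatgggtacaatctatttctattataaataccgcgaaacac
ztf-27 (chrII:10388093-10388293, plus strand): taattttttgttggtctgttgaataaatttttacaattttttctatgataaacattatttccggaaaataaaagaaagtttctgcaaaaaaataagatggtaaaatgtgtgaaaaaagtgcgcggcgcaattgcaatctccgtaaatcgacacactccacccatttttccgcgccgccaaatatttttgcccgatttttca
F54F12.1 (chrIII:13062563-13062763, plus strand): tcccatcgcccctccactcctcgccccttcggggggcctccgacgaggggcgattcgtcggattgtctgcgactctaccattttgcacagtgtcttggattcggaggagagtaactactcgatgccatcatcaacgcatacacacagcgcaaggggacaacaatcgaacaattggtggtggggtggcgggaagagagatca
Y49G5A.1 (chrV:5284701-5284901, plus strand): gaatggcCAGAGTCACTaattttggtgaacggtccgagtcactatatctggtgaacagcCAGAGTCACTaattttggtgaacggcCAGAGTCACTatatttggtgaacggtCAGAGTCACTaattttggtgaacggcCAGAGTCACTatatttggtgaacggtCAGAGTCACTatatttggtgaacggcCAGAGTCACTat

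A repeat was measured as the best match of a window with itself after a shift of 2 to 60 bases, and a window that matched itself at 60% or more of its positions was counted as tandem. The most frequent unit of 2 further arrays is printed from the first base at which it occurs, an arbitrary point in a repeat. The 27-base unit next to fbxa-55 occurred 3 times without change in its window, which matched itself at 82.8% of positions. The 39-base stretch next to sre-47, itself made of similar shorter copies, also occurred 3 times, in a window that matched itself at 76.5% of positions.
fbxa-55 unit (chromosome III): tatagtgggaagccagagagagtaaaa
sre-47 unit (chromosome II): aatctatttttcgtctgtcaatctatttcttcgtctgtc

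The next windows hold the T-box core GGTGTG or its complement, marked in capitals, and are the 5 highest intergenic peaks with it. In the window next to T01E8.1 the capitals also mark a 16-base palindrome built around the core, described further on.
rga-9 (chrII:15263004-15263204, plus strand): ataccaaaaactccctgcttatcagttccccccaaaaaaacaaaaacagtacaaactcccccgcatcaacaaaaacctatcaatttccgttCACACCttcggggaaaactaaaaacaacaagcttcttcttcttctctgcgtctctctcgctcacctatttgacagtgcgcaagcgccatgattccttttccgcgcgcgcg
aqp-2 (chrII:9262939-9263139, plus strand): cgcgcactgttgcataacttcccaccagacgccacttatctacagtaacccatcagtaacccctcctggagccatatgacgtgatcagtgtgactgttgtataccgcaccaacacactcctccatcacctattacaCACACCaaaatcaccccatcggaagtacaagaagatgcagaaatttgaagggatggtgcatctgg
F55G7.5 (chrX:11937442-11937642, plus strand): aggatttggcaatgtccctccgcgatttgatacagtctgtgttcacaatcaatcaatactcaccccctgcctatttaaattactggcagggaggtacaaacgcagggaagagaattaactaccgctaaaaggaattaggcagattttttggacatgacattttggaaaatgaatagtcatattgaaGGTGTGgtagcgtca
T01E8.1 (chrII:10210931-10211131, plus strand): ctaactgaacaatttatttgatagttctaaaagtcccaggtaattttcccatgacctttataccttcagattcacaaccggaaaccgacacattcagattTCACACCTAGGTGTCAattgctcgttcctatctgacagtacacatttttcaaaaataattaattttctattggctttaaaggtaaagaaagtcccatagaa
flh-3 (chrIV:9268993-9269193, plus strand): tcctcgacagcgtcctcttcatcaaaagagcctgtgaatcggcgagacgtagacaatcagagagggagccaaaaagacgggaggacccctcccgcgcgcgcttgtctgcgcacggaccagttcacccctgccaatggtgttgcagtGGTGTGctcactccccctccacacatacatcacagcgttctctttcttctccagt

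The last windows show the word GAGAGA or its complement in capitals for sup-26, gpb-1 and din-1. For mrpl-40 the capitals mark GTTCGANNC, the B box of tRNA promoters, and CTAGTGG, both on the complementary strand.
sup-26 (chrIII:4282264-4282464, plus strand): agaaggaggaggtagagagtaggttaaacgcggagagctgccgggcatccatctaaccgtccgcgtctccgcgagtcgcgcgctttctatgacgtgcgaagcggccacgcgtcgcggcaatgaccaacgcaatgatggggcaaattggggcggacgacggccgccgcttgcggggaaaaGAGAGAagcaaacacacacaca
gpb-1 (chrII:11749770-11749970, plus strand): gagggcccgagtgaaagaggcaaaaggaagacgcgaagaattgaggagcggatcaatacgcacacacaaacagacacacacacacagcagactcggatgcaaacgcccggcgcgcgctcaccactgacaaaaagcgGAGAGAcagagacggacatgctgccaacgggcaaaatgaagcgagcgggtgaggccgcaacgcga
din-1 (chrII:11635931-11636131, plus strand): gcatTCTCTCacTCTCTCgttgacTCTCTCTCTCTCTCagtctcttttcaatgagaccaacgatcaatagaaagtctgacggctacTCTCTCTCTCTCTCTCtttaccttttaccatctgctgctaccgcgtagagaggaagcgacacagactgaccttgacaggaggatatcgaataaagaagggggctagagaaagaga
mrpl-40 (chrIII:89224-89424, plus strand): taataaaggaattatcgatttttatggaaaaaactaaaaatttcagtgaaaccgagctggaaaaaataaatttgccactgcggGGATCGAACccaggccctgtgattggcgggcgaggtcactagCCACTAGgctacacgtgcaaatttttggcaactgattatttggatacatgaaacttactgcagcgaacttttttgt

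Intergenic regions were on the thresholded list less often than promoter regions and more often than intronic and coding exon regions. The share was 53 of 3017 (1.76%, 95% Wilson interval 1.35 to 2.29%), beside 3.19% of all pooled regions. Promoter regions were on it more often, at 204 of 5105 (4.0%, 3.49 to 4.57%), and intronic regions less often, at 40 of 4161 (0.961%, 0.707 to 1.31%). Regions at small RNA genes, piRNA genes and pseudogenes had the highest share, at 19.1% of 1055 (16.8 to 21.5%). They gave 38.6% of the peaks from 6.45% of the regions, and they raise the share over all pooled regions, which includes them. Coding exon regions had 0.135% (3 of 2227), and regions elsewhere in genes had 2.53% (20 of 790). Intergenic DNA gave 10.2% of the peaks from 18.4% of the regions. The same order held for the q-value of the pooled list, the false discovery rate given to a region by the peak caller. There, 100 intergenic regions (3.31%, 2.73 to 4.02%) had q below 0.05, beside 5.39% of all regions. The q-value grades the same pooled list, so it is not separate support. These intervals cover counting error over regions only, and regions are not replicates, so no p-value is given.

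**Figure D1:**
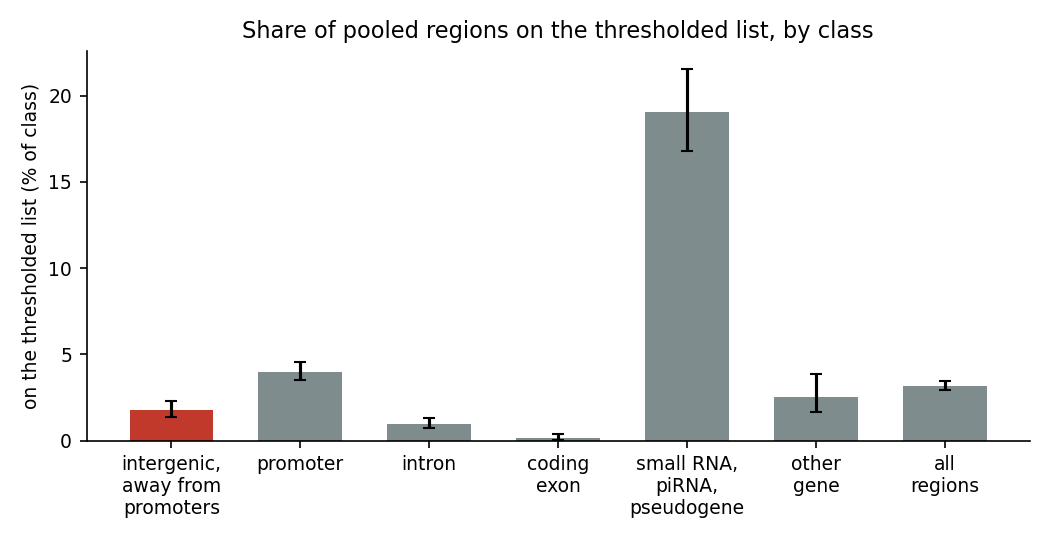
Share of each class of pooled regions that was on the thresholded list, in percent of the class, with 95% Wilson intervals as error bars. The intergenic share of 1.76% (red) lies between introns at 0.961% and promoters at 4.0%, and regions at small RNA genes, piRNA genes and pseudogenes stand highest at 19.1%.

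Per Mb, intergenic DNA differed from the rest of the genome more in peaks than in regions of any signal. The rule leaves 19.7 Mb of sequence, 19.7% of the genome, in which a summit could have fallen. There were 153 intergenic regions per Mb of it, beside 166 regions per Mb elsewhere, but 2.69 intergenic peaks per Mb beside 5.81 peaks per Mb elsewhere. The sequence elsewhere includes the small RNA genes, piRNA genes and pseudogenes. The median signal, the authors' peak-caller value for a region, was 34.2 over intergenic regions (range 27.5 to 331) and 34.7 over the other pooled regions. Among peaks the median was 94.7 for intergenic peaks and 103 for the others.

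Of the 53 intergenic peaks 7 were tandem repeats, and they filled 5 of the 10 highest places. The share was 13.2% (7 of 53, 6.55 to 24.8%), beside 3.54% of the other intergenic regions (105 of 2964, 2.93 to 4.27%), 1.71% of the peaks of other classes (8 of 468, 0.869 to 3.34%) and 2.53% of all pooled regions. Their median signal was 153 (80.6 to 331), beside 90.5 (75.8 to 147) for the 46 intergenic peaks that were not repeats. Read the other way, 7 of the 112 tandem intergenic regions (6.25%, 3.06 to 12.3%) and 46 of the 2905 others (1.58%, 1.19 to 2.11%) were on the thresholded list. Over intergenic regions of any signal the medians were close, at 36.3 for the 112 tandem regions and 34.2 for the 2905 others. The repeat measure and its threshold were chosen after the sequences of the highest peaks were seen. How many copies of each array the strain carries, and how reads from an array were placed, was not tested.

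The highest intergenic peak of all was the 11-base repeat between vep-2 and gst-11, which encodes a glutathione S-transferase. It lay at chrX:3631653-3631977 and had a signal of 331 in the pooled list, 179 in replicate 1 and 156 in replicate 2. It ranked 11 of 16355 in the pooled list and 10 in each replicate, so both replicates placed it alike. Its summit was 910 bp past the end of vep-2 and 573 bp past the end of gst-11, since the 2 genes point towards each other. None of the window's bases is soft-masked as repeat in the RefSeq genome, although the window matched itself at 81.1% of positions with a shift of 11 bases.

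The 3 intergenic peaks next in signal lay on different chromosomes and held variants of 1 repeat. They were next to fbxa-55, an F-box gene, at chrIII:931376-931835, next to nas-30, an astacin protease gene, at chrI:933288-933747, and next to C24H10.4 at chrX:5056188-5056647. Their pooled signals were 180, 167 and 153. In replicate 1 and replicate 2 the region at fbxa-55 had 87.1 and 106, that at nas-30 had 122 and 77.8, and that at C24H10.4 had 92.6 and 67.0. All 3 therefore ranked within the highest 119 regions of each replicate list. Each window matched itself best at a shift of 27 bases. On one strand or the other, the windows at fbxa-55 and nas-30 had 25 runs of 16 bases in common. Those at fbxa-55 and C24H10.4 had 30, and those at nas-30 and C24H10.4 had 31. The unit printed above does not occur unchanged at C24H10.4, whose window lacks GAGAGA, so the copies there are variants. The window at nas-30 only just passed the repeat threshold, with a self-match of 61.5%, and its summit lay at the edge of the array.

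Arrays of this repeat also occurred without a peak. Runs of the 16-base words shared among these windows, with at least 20 of them and gaps of at most 500 bp, occurred at 30 places in the genome, over lengths of 51 to 4645 bp. Of these, 12 held a pooled region and 3 held a peak, namely the 3 just named. As the words were taken from the windows of those 3 peaks, their arrays were bound to be found with a peak. The next region in signal at such an array, between Y54G11A.14 and ddl-3 on chromosome II, had a signal of 73.9, just under the lowest signal on the thresholded list, 75.8. At the other 8 arrays with a pooled region, the highest region had a signal of 29.2 to 46.2.

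The remaining 3 tandem repeats had lower signals. The repeat next to Y49G5A.1 on chromosome V matched itself best at a shift of 52 bases. That shift spans more than 1 copy of a shorter unit, since CAGAGTCACT occurred 7 times in the window. Its signal was 121 in the pooled list, with 69.9 in replicate 1 and 55.9 in replicate 2. The repeat next to the chemoreceptor gene sre-47 on chromosome II had its best shift at 39 bases. Its pooled signal was 90.9, with 40.2 and 50.1 in replicates 1 and 2. Its central 51 bases occur at 111 places in the genome, overlapping copies included. The 32-base repeat next to Y95D11A.1 had a pooled signal of 80.6, with 61.8 in replicate 1 but 19.9 in replicate 2, where it ranked 6346.

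**Figure D2:**
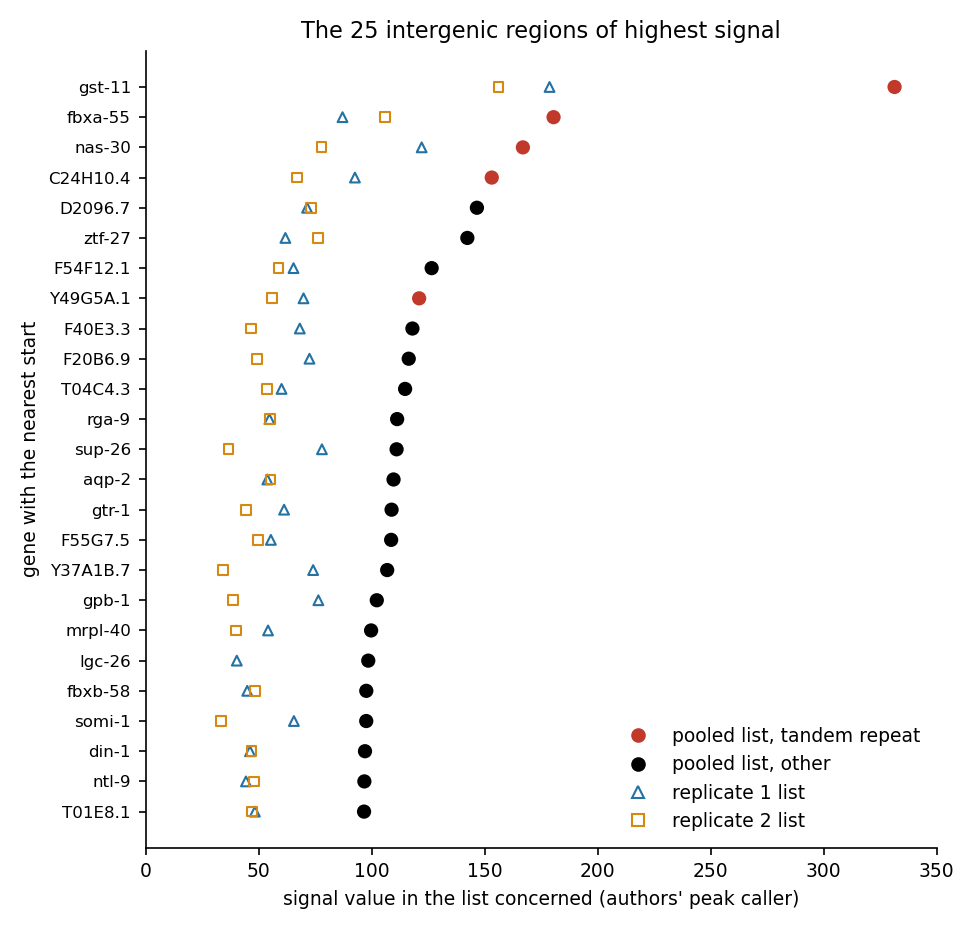
The 25 intergenic regions of highest pooled signal, from highest at the top, named by the gene with the nearest protein-coding start. Filled circles give the signal in the pooled list, red for tandem repeats, and open triangles and squares give the signal in the replicate 1 and replicate 2 lists, which are not scaled to each other. The region at gst-11 stands apart at 331, and lgc-26 has no point for replicate 2.

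Of the intergenic peaks that were not repeats, the highest lay between the ends of 2 convergent genes on chromosome IV. Its summit was 117 bp past the end of D2096.7 and 234 bp past the end of aagr-1, which encodes an alpha glucosidase, and its signal was 147, with 71.5 in replicate 1 and 73.1 in replicate 2. The next lay on chromosome II, 60 bp past the end of ztf-27, a zinc-finger gene, with a signal of 142 and replicate values of 61.9 and 76.2. The region at D2096.7 ranked 144 in the replicate 1 list and 98 in the replicate 2 list, and that at ztf-27 ranked 207 and 83. Positions just past gene ends were not typical, since 6 of the 53 intergenic peaks lay within 200 bp of a protein-coding gene, beside 235 of the 2964 other intergenic regions. The nearest gene boundary was the 3′ end for 28 of 53 peaks (52.8%) and for 50.1% of the other intergenic regions.

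Further members of the highest 25 lay upstream of genes of several kinds. The region 2140 bp upstream of sup-26, which encodes an RNA-binding protein, had a signal of 111 and the region 1259 bp upstream of gpb-1, the G protein beta subunit gene, had 102. Those 5106 bp upstream of rga-9 and 1058 bp upstream of aqp-2, an aquaporin gene, had 111 and 110. The regions 5200 bp upstream of somi-1, a zinc-finger gene, and 2422 bp upstream of din-1, which encodes a partner of the nuclear receptor DAF-12, had 97.6 and 97.1. In replicate 1 and replicate 2, rga-9 had 54.8 and 55.1 (ranks 277 and 175) and aqp-2 had 53.9 and 55.3 (ranks 288 and 173). The region at sup-26 had 78.0 and 36.7 (ranks 115 and 597), and that at gpb-1 had 76.5 and 38.8 (ranks 121 and 505). The first pair thus ranked higher in replicate 2 and the second pair in replicate 1. A nearest gene is a position and not a target, and no expression data bear on it.

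The others of the highest 25, named by their nearest start, were F54F12.1, F40E3.3, F20B6.9, T04C4.3, gtr-1, F55G7.5, Y37A1B.7, mrpl-40, lgc-26, fbxb-58, ntl-9 and T01E8.1. Their signals ran from 127 at F54F12.1 to 96.7 at T01E8.1. The region at lgc-26, a ligand-gated ion channel gene, had 40.4 in replicate 1 and no match within 100 bp in replicate 2, and its central 51 bases occur at 3 places in the genome. Its window had a GC content of 27.9%, the lowest of the 53 intergenic peaks. The region at mrpl-40 sat between the ends of that gene, for a mitochondrial ribosomal protein, and of pat-4, for the integrin-linked kinase of muscle attachments, 81 and 129 bp away.

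The intergenic peak beside T01E8.1 held the closest match in the genome to the Brachyury palindrome. The region is chrII:10210801-10211260, and its summit lay 1770 bp past the end of T01E8.1 and 7440 bp upstream of ref-1, whose start faces it and which encodes a bHLH factor of a family known as Notch targets. The letters TCACACCTAGGTGTCA lay within 8 bp of the summit, counted to the middle of the match, and differ at 1 of 16 positions from the palindrome made of AGGTGTGA preceded by its own complement. No exact copy of the palindrome was found on the 6 nuclear chromosomes, and this was the sole copy with 1 mismatch. Of the 6 copies with 2 mismatches none lay in a pooled region, and of the 141 with 3 mismatches 11 lay in a pooled region and 1 in a peak. The signal was 96.7 in the pooled list (rank 292), with 48.4 in replicate 1 and 47.2 in replicate 2. The palindrome was searched after this sequence was seen, and a match is a description and not a shown site.

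The T-box core was found in few intergenic peaks. GGTGTG, on either strand within the window, was in 7 of 53 (13.2%, 6.55 to 24.8%), namely those next to rga-9, aqp-2, F55G7.5, T01E8.1, flh-3, sqt-3 and ogt-1. It was in 1 of 106 flank windows centred 500 bp to either side (0.943%, 0.167 to 5.15%), in 8.50% of the other intergenic regions and in 6.89% of all pooled regions. The longer word AGGTGTGA, which contains the core, was in 2 of 53 (3.77%, 1.04 to 12.8%), at rga-9 and T01E8.1, and in 0.569% of all regions. The interval of the core in intergenic peaks overlaps that of the other intergenic regions (7.55 to 9.56%). The median signal was 96.7 over the 7 peaks with the core and 92.8 over the 46 without.

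GAGAGA was in nearly as many intergenic peaks as lacked it. It was in 25 of 53 (47.2%, 34.4 to 60.3%), beside 8.49% of their flanks (9 of 106, 4.53 to 15.4%), 20.2% of the other intergenic regions (18.8 to 21.7%) and 16.3% of all pooled regions. Peaks of other classes had 30.6% (26.6 to 34.9%), whose upper end just reaches the lower end of the intergenic interval, and among them intron peaks had 40% (26.3 to 55.4%). The windows next to sup-26, gpb-1 and din-1 printed above are examples, with GA-rich runs on one strand or the other. GC content moved with this word: the median was 49.3% in the 25 peaks with it and 42.0% in the 28 without. Among windows of at least 45% GC, 21 of 33 intergenic peaks had the word (63.6%, 46.6 to 77.8%) and 234 of 640 other intergenic regions (36.6%, 32.9 to 40.4%). From 35 to under 45% GC the shares were close, at 3 of 13 intergenic peaks (23.1%) and 21.2% of the other intergenic regions, and below 35% GC they were 1 of 7 and 8.57%.

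Intergenic peaks were richer in G and C than the DNA around them. Their median GC content was 47.3%, beside 32.8% in the flanks, 38.8% in the other intergenic regions and 39.3% in all pooled regions. Peaks of other classes had 46.8%. Of intergenic regions under 35% GC, 7 of 1010 (0.693%, 0.336 to 1.42%) were on the thresholded list, of those from 35 to under 45% GC 13 of 1334 (0.975%, 0.570 to 1.66%), and of those at 45% or more 33 of 673 (4.90%, 3.51 to 6.81%). The part of base composition in the recovery of fragments was not tested.

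Further words were counted in the same windows. A run of 8 T or 8 A, TTTTTTTT, was in 4 of 53 (7.55%, 2.97 to 17.9%), beside 28.3% of flanks and 24.5% of the other intergenic regions. Peaks of other classes also had it seldom, at 12.2% (9.52 to 15.5%), with an interval that overlaps that of intergenic peaks. The GC box GGGCGG was in 3 of 53 (5.66%, 1.94 to 15.4%), beside 19.6% of promoter peaks (14.7 to 25.6%) and 5.80% of the other intergenic regions. TGATAA, the site of GATA factors, was in 7 of 53 (13.2%), near the 13.4% of all regions, and the E-box CACGTG was in 2 of 53 (3.77%), near the 4.28% of all regions. TGTTTAC, a forkhead word, was in 0 of 53, which allows a share of up to 5.66% by the limit of 3 counts (6.76% by the Wilson interval), and in 2.15% of all regions.

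**Figure D3:**
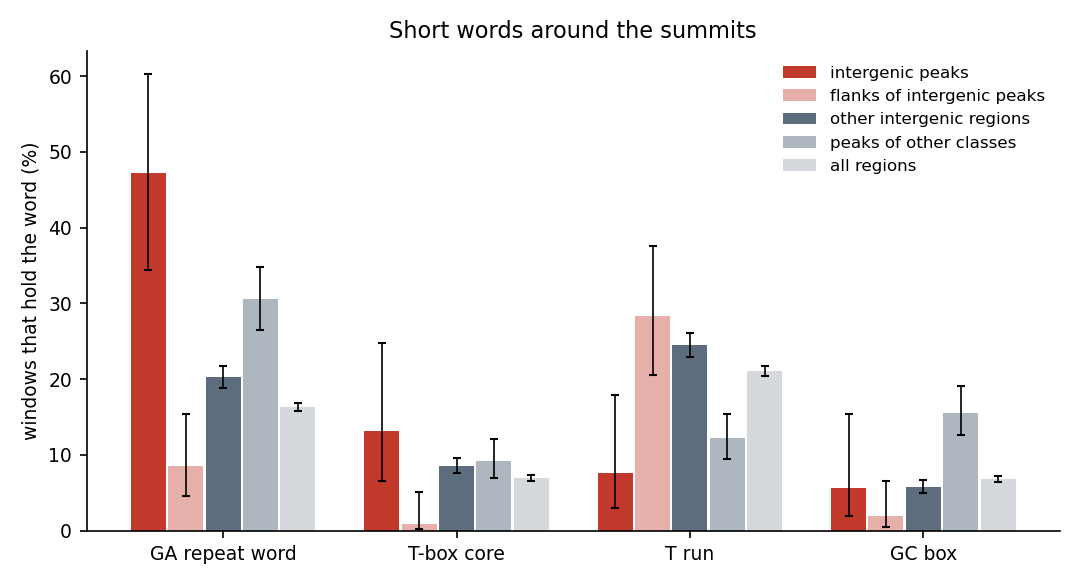
Share of windows, 100 bp to either side of the summit, that hold a word on either strand, in percent, with 95% Wilson intervals: GA repeat word GAGAGA, T-box core GGTGTG, T run TTTTTTTT and GC box GGGCGG. Intergenic peaks (red) had the GA repeat word in 47.2% of windows and their flanks in 8.49%.

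Letters of tRNA promoters were rare in intergenic peaks, as the rule removes annotated tRNA genes. The B box GTTCGANNC was in 1 of 53 (1.89%, 0.334 to 9.94%), at mrpl-40, beside 54.7% of the peaks at small RNA genes, piRNA genes and pseudogenes and 2.97% of all regions. In the window at mrpl-40 it read GTTCGATCC on the minus strand with its first base 9 bp from the summit, and CTAGTGG was on the same strand. CTAGTGG was in 2 of 53 (3.77%, 1.04 to 12.8%), at mrpl-40 and D2096.7, beside 1.08% of all regions. This word was chosen after the sequence at D2096.7 was seen, and no RefSeq or Ensembl gene covers either summit.

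Outside the promoter window, the share on the thresholded list did not fall steadily with distance from a gene start. The median distance to the nearest protein-coding start was 2544 bp for intergenic peaks (827 to 9954 bp) and 2599 bp for the other intergenic regions (244 to 24138 bp). On the thresholded list were 12 of 573 regions from 1000 to 1500 bp (2.09%, 1.20 to 3.62%), 7 of 435 from 1500 to 2000 bp (1.61%), 14 of 646 from 2000 to 3000 bp (2.17%), 10 of 757 from 3000 to 5000 bp (1.32%) and 9 of 475 from 5000 to 10000 bp (1.89%, 1.00 to 3.56%). The 52 regions beyond 10000 bp had 0, which allows a share of up to 5.77% by the limit of 3 counts (6.88% by the Wilson interval), and a highest signal of 53.8. These intervals overlap, and the rank correlation of distance with signal was -0.05 over the 3017 regions. Regions less than 1000 bp from a start are those downstream of short genes.

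**Figure D4:**
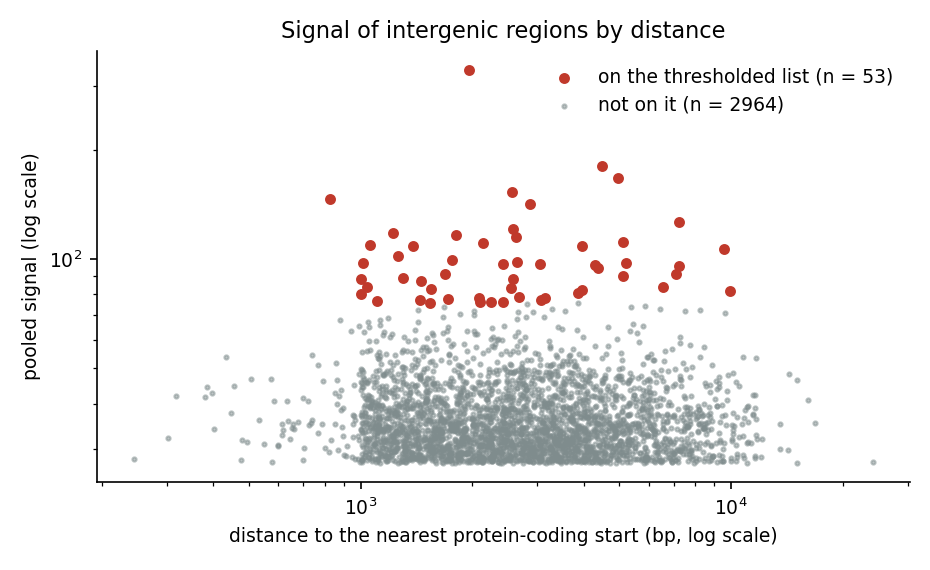
Pooled signal of the 3017 intergenic regions against distance to the nearest protein-coding start, both on log scales, with the 53 peaks in red. Peaks occur at all distances from 827 to 9954 bp, and the highest, at 331, lies 1960 bp from the start of gst-11.

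At the border of the rule, values were as follows. Of 115 intergenic regions 1001 to 1100 bp upstream of a start, 5 were peaks (4.35%), with a median signal over all 115 of 36.4. Of 131 regions excluded at 901 to 1000 bp upstream, 5 were peaks (3.82%), with a median of 35.7. These shares, from 5 peaks each, stood beside 1.76% of all intergenic regions and 4.0% of promoter regions. The nearest included peaks were flh-3 at 1003 bp, a FLYWCH zinc-finger gene, and chd-7 at 1004 bp, a chromatin remodeller gene. On signal, the lowest peak was at tmem-184 with 75.8, and the highest intergenic region off the thresholded list was at C49F8.15 with 75.7.

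The 5 intergenic peaks farthest from a start were those named by F11A6.16 at 9954 bp, Y37A1B.7 at 9590 bp, Y50D4C.12 at 7235 bp, F54F12.1 at 7221 bp and mig-15 at 7107 bp. The peak named by Y37A1B.7 lay 83 bp from the annotated hairpin of cel-mir-52, a member of the mir-51 family of embryonic microRNAs. Its signal was 107, with 74.1 in replicate 1 and 34.4 in replicate 2. The peak upstream of mig-15, a kinase gene of cell migration, had a signal of 90.9, with 42.9 and 51.4. The peak at Y50D4C.12 rested largely on replicate 1, where it ranked 141, beside 4452 in replicate 2. In all, 5 of 53 intergenic peaks (9.43%) and 248 of 2964 other intergenic regions (8.37%) had a microRNA or other noncoding RNA gene within 200 bp.

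The share on the thresholded list had overlapping intervals for the 3 arrangements of the flanking genes. Between divergent genes, whose starts face the region, 17 of 903 were peaks (1.88%, 1.18 to 2.99%), between genes in the same direction 27 of 1715 (1.57%, 1.08 to 2.28%), and between convergent genes 9 of 399 (2.26%, 1.19 to 4.23%). Per Mb of intergenic sequence these were 2.75, 2.53 and 3.16 peaks. Of the 53 peaks, 31 had the nearest start downstream of them in the direction of the gene, so that they lay upstream of it (58.5%), beside 68.6% of the other intergenic regions.

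The X chromosome held 14 of the 53 intergenic peaks and also the most intergenic sequence. The rule leaves 28.6% of X, beside 16.2 to 19.6% of the autosomes. Peaks per Mb of that sequence were 2.76 on X, 2.86 on I, 3.01 on II, 3.70 on III, 3.02 on IV and 1.31 on V. Chromosome V had the lowest value, from 5 peaks in 3.81 Mb. Peaks of other classes were also rarest there, at 3.10 per Mb of the remaining sequence, and were 8.85 per Mb on X. The outer 25% of each chromosome at either end had 26 intergenic peaks, 2.65 per Mb, and the central 50% had 27, or 2.72 per Mb, while regions of any signal were denser in the outer parts, with 177 per Mb beside 129.

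A smaller share of intergenic peaks than of other peaks stood high in both replicates, with overlapping intervals. A summit within 100 bp was present in both replicate lists for 908 of the 3017 intergenic regions (30.1%), beside 30.5% of all pooled regions. Of the intergenic peaks, 49 of 53 (92.5%) were matched in both lists, beside 444 of 468 other peaks (94.9%). Within the highest 521 regions of both lists were 25 intergenic peaks (47.2%, 34.4 to 60.3%), beside 270 of the other peaks (57.7%, 53.2 to 62.1%), and 7 intergenic peaks were in the highest 521 of neither. The share was 50.5% for promoter peaks and 22.5% for intron peaks. The rank correlation of signal between replicates, a description over regions of the same 2 libraries, was 0.25 over 49 intergenic peaks and 0.56 over 444 other peaks, of which 36 intron peaks gave -0.19. The intergenic peaks span a narrower range of signal than the others.

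Where a match was found, 6 intergenic peaks ranked beyond 2000 in a replicate list, and for all of them it was replicate 2. They were named by W02H3.3 (rank 178 in replicate 1 and 14067 in replicate 2), C34C12.6 (472 and 11049), Y95D11A.1 (208 and 6346), unc-97 (296 and 6245), Y50D4C.12 (141 and 4452) and tmem-184 (359 and 2499). Among other peaks 28 of 468 (5.98%) ranked beyond 2000 in a list, 15 of them in replicate 1 and 13 in replicate 2. The share of intergenic peaks was 11.3%, near the 12.5% of intron peaks. The pooled signals of these 6 peaks were 75.8 to 95.5. Peaks without a match within 100 bp are not in these counts. Those at tcl-2 and ogt-1 had no match in replicate 1, and those at lgc-26 and pitp-1 had none in replicate 2.

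**Figure D5:**
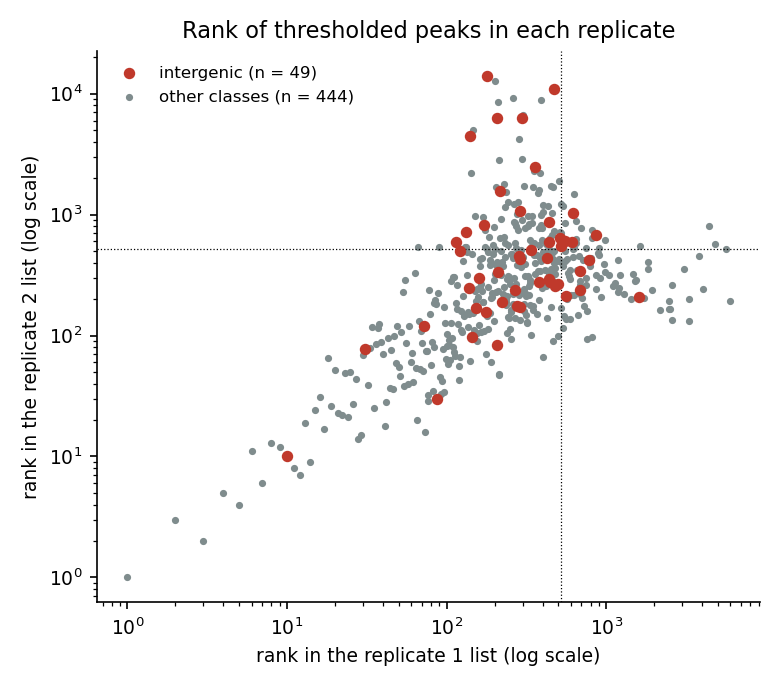
Rank of each thresholded peak in the replicate 1 list (horizontal) and the replicate 2 list (vertical), both on log scales, for the 49 intergenic peaks (red) and 444 other peaks (grey) matched in both lists. Dotted lines mark rank 521. The 6 intergenic peaks named in the text lie above rank 2000 on the vertical axis and none beyond it on the horizontal axis.

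Genes nearest to an intergenic peak were rare in the gene lists examined, as they were among all protein-coding genes. Over all 19973 protein-coding genes, 53 were the nearest to an intergenic peak and 2150 (10.8%) to an intergenic region of any signal. Of 178 collagen genes 1 was, sqt-3, a cuticle collagen gene, whose peak lay 450 bp past its end with a signal of 77.3 and replicate values of 40.3 and 44.1. Of 43 body wall muscle genes 1 was, unc-97, which encodes a LIM protein of muscle attachments. Its peak lay 1108 bp upstream with a signal of 76.6, but with 53.3 in replicate 1 and 20.03 in replicate 2. Of 1299 chemoreceptor genes 1 was, sre-47, at the tandem repeat described above. The other 10 lists, of homeobox, T-box, bHLH and nuclear receptor factors, epidermal regulators, Wnt and Notch genes, neuronal genes, neuropeptides, histones and ribosomal proteins, had none. Among these, the nuclear receptor gene nhr-204 and the bHLH gene ref-1 flanked an intergenic peak without having the nearest start. With so few such genes over all protein-coding genes, a short list without one is not a result about its genes.

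Intergenic regions nearest to T-box genes had signals of 27.6 to 42.3, beside a median of 34.2 over all intergenic regions. Of 21 T-box genes, 5 (23.8%, beside 10.8% of all protein-coding genes) were nearest to an intergenic region. They were tbx-2, tbx-32, tbx-33, tbx-34 and tbx-43. The highest, between the ends of tbx-2 and sax-2 on chromosome III, had a signal of 42.3 (rank 3816), with 26.0 in replicate 2 and no match in replicate 1. The region 3277 bp upstream of vab-7, an even-skipped homeobox gene of the posterior body, had 37.9 (rank 5871), with 18.1 in replicate 2 and no match in replicate 1. The region past the end of unc-119, the gene used as transformation marker, had 35.6. None of these had q below 0.05, which only 3.31% of all intergenic regions had.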

How the data were processed

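Per the deposited file descriptions, the authors called peaks and background regions on ce11 for each replicate and for the pooled alignments, each with a control, and derived a thresholded list after the irreproducible discovery rate step. Neither aligner nor peak caller is named: not given in the sources used here. Each region's deposited signal is the authors' value, undefined in these sources and not scaled across lists, so it served to rank and describe regions inside 1 list. From the deposited −log10 q-value came the regions with q below 0.05. The deposited summit position, in bp from the region's start, placed each region. No read numbers are given, so depth is unknown and intervals cover counting error only.

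Summits were placed on the Ensembl release 115 annotation of WBcel235, the same assembly as ce11, and sequences were read from the RefSeq copy of it. Flanking genes are protein-coding. Replicate summits were matched within 100 bp. Word searches used 100 bp to either side of summits on both strands. Self-match took the best shift from 2 to 60 bases. No sequence of chromosome I is printed, nor are the windows of 4 other intergenic peaks that share 30 or more bases in a row with it. Analyses ran in Python 3.11.15 with numpy 2.4.6, pandas 2.3.3 and scipy 1.17.1, and the classification and matching were tested on simulated data.

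Named regions are the 25 intergenic regions of highest signal, the 5 peaks farthest from a start, up to 3 genes per list that were nearest to an intergenic peak, and any T-box gene or vab-7 with an intergenic region nearest to its start. Genes named outside this rule were chosen after their values were seen. The regions and the 13 gene lists were chosen with earlier results of these data known. With 1 group there is no comparison of conditions and no test.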

Additional observations from a re-analysis of the deposited data

How the results depend on the processing

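The number of intergenic regions stayed within 1.5 times of 3017 under a promoter window of 2000 bp upstream to 500 bp downstream (2131), a distance of 500 bp from small RNA genes, piRNA genes and pseudogenes (2904) and the demand that the whole region overlap no gene (2461), and the share on the thresholded list then lay between 1.71 and 1.83%. Against the upper part of the thresholded list it was 0.597% by construction, since fewer regions can qualify. In the lists of single replicates the share in the highest 521 was 1.22 to 1.30%, beside 2.16 to 2.50% of all regions in those lists, which are longer than the pooled one. The share at q below 0.05 became 1.76% at q below 0.01, and 2.24 to 3.03% in single replicates. The share found in both replicate lists was 19.1% for summits within 50 bp and 53.9% for an overlap of 1 bp. GAGAGA was in 32.1% of intergenic peaks within 50 bp of the summit, where fewer letters are searched, in 47.2% within 150 bp, and in 40 to 41.5% in single replicates. Naming both flanking genes gave 106 genes in place of 53. Alternatives added after the data were seen were regions under 50% soft-masked (2.03% on the thresholded list), over 200 bp from any noncoding gene (1.74%) or outside tandem repeats (1.58%). Tandem repeats made up 11.3% and 7.55% of intergenic peaks at self-match thresholds of 70 and 80%, and 11.3 to 12% in single replicates. No paired analysis was possible because the study has 1 group.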

Other observations

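Among intergenic regions just off the thresholded list, 2 of the 5 highest were also tandem repeats. The region between Y54G11A.14 and ddl-3, an array of the 27-base repeat, had a self-match of 93.1%. Its signal was 73.9, with 36.3 in replicate 1 and 26.6 in replicate 2. The region past the end of F18E9.1 had a self-match of 76.6% with a shift of 9 bases and a signal of 73.7, with 40.1 and 31.6. Outside the repeats, 3 pairs of intergenic peaks shared runs of 16 bases: F20B6.9 and W02H3.3 shared 2, T04C4.3 and din-1 shared 4, and gtr-1 and ral-1 shared 2. Those at T04C4.3 and din-1 lie in runs of GA.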
